A study of Homo sapiens with 2 samples.

Results

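The SLC25 family holds the carrier proteins that move metabolites, nucleotides, cofactors and protons across the inner membrane of mitochondria. Its members here were all probes whose single annotated symbol starts with SLC25A or is *UCP1*, *UCP2* or *UCP3*, which gave 75 of 47323 probes and 51 of 20046 named genes. Of the 51 symbols, 48 are protein-coding carrier genes with 71 probes. The other 3 are an antisense RNA (*SLC25A21-AS1*) and the pseudogenes *SLC25A3P1* and *SLC25A51P4*, and they are kept apart from the carriers below.

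Illumina bead arrays, read in 1 colour, gave the expression values of 1 group of 2 biological replicates. The cells come from the human embryonic stem cell line HUES8, differentiated to stage 6, at which the culture contains SC-beta cells (beta-like cells made from stem cells), and sorted as Nkx6.1+/Ins+ cells. RNA was isolated with MARIS, a method for cells that were fixed, stained for intracellular proteins and sorted. Both replicates share the line, the stage and the sort, so they model 1 genetic background, and the published islet and stem cell arrays that the study set beside them were not analysed here.

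A carrier of this family is a small membrane protein built of repeated units, which exposes its binding site to the cytosol and the matrix in turn and usually exchanges one substrate for another. In a beta cell the carriers stand between glucose breakdown in the cytosol and ATP production in the matrix. They export the ATP that closes the potassium channel, and they carry the malate, aspartate, glutamate and citrate that move reducing power and carbon between both compartments. Because there is 1 group, 2 questions could be asked of the data: which carriers were detected, and how far each differed between the replicates. There is no test between groups and no p-value.

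Values are normalized intensities on a linear scale, and a probe was above background if it exceeded, on both arrays, the 95th percentile of olfactory receptor probes (n = 457), whose genes these cells are not known to use. This floor lay at 18.01 on replicate 1 and 15.9 on replicate 2. A gene was above background if any of its probes was, and it is represented by its brightest such probe. How bright a probe is depends partly on its sequence, so a higher value of one gene than of another is not read as more RNA. Beta-cell markers fitted the label in 5 of 6 cases (*INS*, *PDX1*, *SLC30A8*, *CHGA* and *ABCC8*), while *NKX6-1*, whose protein was a sorting marker, had 78.9 on replicate 1 and -4.24 on replicate 2. The summed intensity of the measured markers of other islet cells (*GCG*, *SST* and *GHRL*, 3 of 3 above background) was 6613 on replicate 1 and 9463 on replicate 2. The 3 liver markers were also above background and moved in opposite directions, *ALB* with 196 and 468, *AFP* with 504 and 999.6, and *APOA1* with 1200.2 and 537. Duct and mesenchyme markers were above background in 2 of 3 cases each. Of the duct markers, *KRT19* had 1022 and 926 and *CFTR* 29.3 and 216, 7.37-fold higher in replicate 2, and of the mesenchyme markers *VIM* had 129.7 and 203. Acinar and pluripotent markers were not above background on both arrays in any case (0 of 4 and 0 of 3). The part of other cell types in the carrier results was not tested. In such bulk RNA, fewer cells of a type and less RNA per cell cannot be told apart.

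Most carriers were detected. Of the 48 carrier genes, 30 (62.5%) were above background on both arrays, beside 50.9% of 17773 protein-coding genes and 46.9% of all named genes. A further 4 were above background on replicate 1 only (8.33%, beside 4.65% of protein-coding genes), 2 on replicate 2 only (4.17%, beside 7.78%) and 12 on neither array (25%, beside 36.4%). Among the 30 detected carriers the mean intensity of the brightest probe ran from 21.9 to 7563 with a median of 178. Only *SLC25A51*, *SLC25A5*, *SLC25A3* and *SLC25A4* exceeded 1000 on both arrays.

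**Figure D1:**
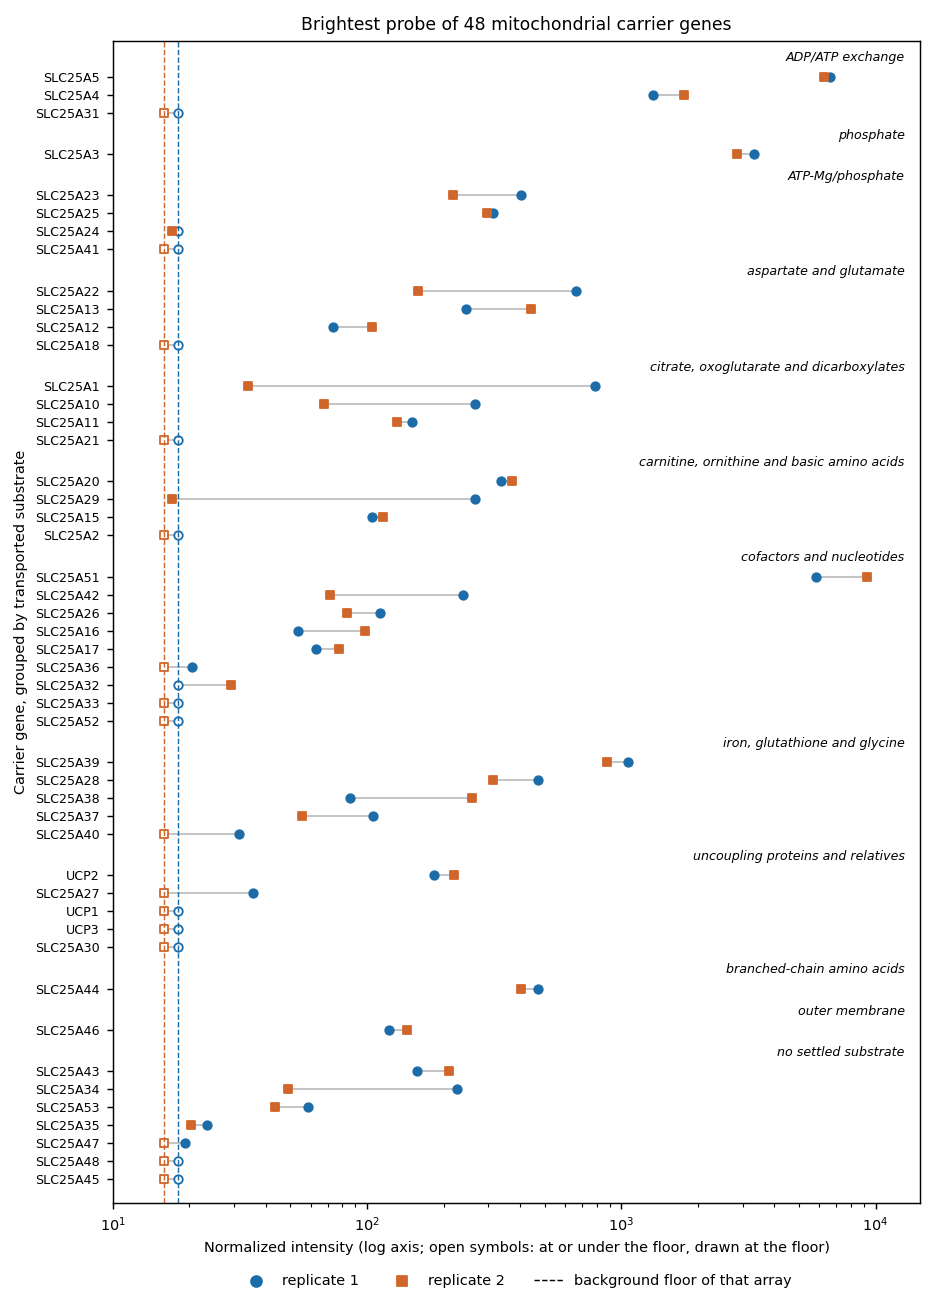
Normalized intensity of the brightest probe of each of 48 carrier genes (log axis) on replicate 1 (circles) and replicate 2 (squares), grouped by transported substrate, with the background floor of each array as a dashed line. Open symbols are at or under the floor and drawn on it. The 4 carriers above 1000 on both arrays stand at the right, and *SLC25A1* and *SLC25A29* have the widest gaps between their symbols.

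The carriers of the ATP synthesis machinery were bright and differed little between the replicates. *SLC25A5*, an ADP/ATP carrier that exports ATP from the matrix, had intensities of 6601 on replicate 1 and 6244 on replicate 2, a mean of 6423 ± 252 (SD, n = 2). *SLC25A4*, the ADP/ATP carrier best known from heart and muscle, had 1331 and 1763 at its brighter probe and 429 and 326 at the other. The 2 probes of *SLC25A4* thus pointed in opposite directions, with log2 differences (replicate 2 minus replicate 1) of 0.41 and -0.39. *SLC25A31*, the ADP/ATP carrier of the germ line, was under the floor with 8.60 and -3.24. Of 4 listed ADP/ATP carriers these 3 were measured. ADP/ATP carriers resemble each other closely, and *SLC25A5* in particular has many processed copies in the genome, so these probes may not separate them fully.

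*SLC25A3*, which imports the phosphate for ATP synthase, had 3330.1 and 2842 at its brightest probe, a log2 difference of -0.23. A second probe for the same transcript gave 2237 and 1344. The third probe, annotated to another *SLC25A3* transcript, was under the floor with -0.274 and 3.15. Whether this lies with the transcript or with the probe was not tested.

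The ATP-Mg/phosphate carriers, most of them regulated by calcium, which adjust the matrix pool of adenine nucleotides, were detected in 2 of 4 cases. *SLC25A23* had 402 and 218 and *SLC25A25* 313 and 297. For *SLC25A25* this was 1 of 4 probes, and each of the others missed the floor on at least one array. *SLC25A24* reached 17.1 on replicate 2 at 1 of its 3 probes, just over that floor, and *SLC25A41* was under the floor on both arrays.

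Carriers of the malate-aspartate shuttle, which passes reducing power from the cytosol into the matrix and is prominent in beta cells, were all detected. *SLC25A13* (citrin), an aspartate/glutamate carrier, had 244 and 442, and its relative *SLC25A12* (aralar) had 73.5 and 104. Both were higher in replicate 2, by 0.86 and 0.50 on the log2 scale, which is under 2-fold. *SLC25A11*, the oxoglutarate/malate carrier that completes the shuttle, had 150.2 and 131 and a log2 difference of -0.20. The shuttle carriers thus stayed within 2-fold, where 24.5% of all genes above background did not. The glutamate carriers were not alike: *SLC25A22* had 663 and 159, a 4.17-fold lower value in replicate 2, and *SLC25A18*, known mainly from brain, was under the floor with 2.82 and 5.24.

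The carriers of citrate and dicarboxylates held some of the widest differences. *SLC25A1*, which exports citrate for fatty acid synthesis, had 788 on replicate 1 and 33.9 on replicate 2, a mean of 411 ± 533 (SD, n = 2). *SLC25A10*, which exchanges malate and succinate for phosphate, had 265 and 67.8. Both were far lower in replicate 2, by 23.2-fold and 3.91-fold, each at its single probe. With an offset of 50 added before the log2 step, which shrinks folds of low values, these were 9.98-fold and 2.68-fold. *SLC25A21*, the oxoadipate carrier of lysine and tryptophan breakdown, was under the floor with -12.0 and -4.59.

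Among carriers of carnitine esters and basic amino acids, *SLC25A20*, which brings acylcarnitines into the matrix for fatty acid oxidation, had 336 and 373 at 1 of 2 probes. *SLC25A15*, the ornithine carrier of the urea cycle, had 104.7 and 116 at 1 of 2 probes, and its relative *SLC25A2* was under the floor. These 2 detected carriers differed by 0.15 each on the log2 scale. *SLC25A29*, a carrier of basic amino acids, was much lower in replicate 2 at both of its probes: 265 and 17.1 at one and 128 and 31.1 at the other. These are 15.5-fold and 4.13-fold lower values, and 17.1 is close to the floor of 15.9. With the offset of 50 the first was 4.69-fold.

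Cofactor and nucleotide carriers were detected in 5 of 9 cases. *SLC25A51*, the carrier that brings NAD+ into mitochondria, gave the highest mean intensity of the family, with 5837 on replicate 1 and 9289 on replicate 2 (7563 ± 2441, SD, n = 2). Its second probe, annotated to the same transcript, had -9.55 and -8.39. The 2 probes of *SLC25A51* thus disagree about whether the gene was expressed at all, and its level rests on 1 probe. *SLC25A52*, a near-identical copy that the probes may not separate, had -14.2 and 5.95 at its own probe, and the pseudogene *SLC25A51P4* had 5.48 and -0.555.

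Of the other carriers in that class, *SLC25A42*, which imports coenzyme A, had 238 and 71.8 at 1 of 2 probes, 3.31-fold lower in replicate 2. *SLC25A26*, the importer of the methyl donor S-adenosylmethionine, had 112 and 83.4. *SLC25A16* had 53.5 and 98.3 at 1 of 2 probes, and *SLC25A17*, a carrier of peroxisomes and not of mitochondria, had 62.9 and 78.0. At the brightest probe *SLC25A26*, *SLC25A16* and *SLC25A17* stayed within 2-fold. The other probe of *SLC25A16* was above background on replicate 2 only (10.8 and 48.9), at least 2.71-fold higher there. *SLC25A32*, known for folate and flavin transport, was above background on replicate 2 only, at least 1.62-fold higher there (-1.05 and 29.3). The pyrimidine nucleotide carriers were weak: *SLC25A36* had 20.4 and 11.2, above background on replicate 1 only, and *SLC25A33* was under the floor.

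The carriers that serve iron, glutathione and haem were detected in 4 of 5 cases. *SLC25A39*, which imports glutathione, had 1065 and 882, while its relative *SLC25A40* passed the floor on replicate 1 only (31.3 and 10.4). *SLC25A28* (mitoferrin 2), the iron importer of most tissues, had 468 and 313, and *SLC25A37* (mitoferrin 1), known from red cell precursors, had 105 and 55.7. Both mitoferrins were lower in replicate 2, with log2 differences of -0.58 and -0.92, under 2-fold. Erythroid markers were not above background on both arrays (0 of 2 measured), so *SLC25A37* was detected where the red cell genes *HBB* (-3.37 and 24.5) and *ALAS2* (-13.4 on both arrays) were not. *SLC25A38*, which carries glycine for haem synthesis, went the other way from the rest of the family's wide differences, with 85.5 and 259.6, a 3.04-fold higher value in replicate 2.

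Of the uncoupling proteins only *UCP2* was detected. *UCP2*, which has been studied in beta cells as a brake on insulin secretion, had 183 and 220.4, a mean of 202 ± 26.4 (SD, n = 2). *UCP1*, the heat-producing uncoupler of brown fat, had -0.343 and 8.41, and the muscle form *UCP3* was under the floor at all 3 of its probes. Markers of fat (*CIDEA*, *ADIPOQ*, *FABP4* and *PPARGC1A*) were not above background on both arrays in any of 4 cases. Of the skeletal muscle markers, 1 of 3 was, *ACTA1*, with 27.3 and 99.98. *SLC25A27*, the brain relative also called UCP4, missed by little, with 35.5 on replicate 1 and 15.7 on replicate 2 against a floor of 15.9, and *SLC25A30* was under the floor.

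The remaining carriers have other or unsettled substrates. *SLC25A44*, which imports branched-chain amino acids, had 472 and 403, and *SLC25A46*, a member that sits in the outer membrane and takes part in mitochondrial shape, had 122 and 143. *SLC25A43* had 158 and 209.5 at 1 of 2 probes. *SLC25A53* was weak, and its 2 probes gave opposite directions, 58.5 and 43.5 at one and 32.1 and 64.5 at the other. *SLC25A34* had 226 and 49.1, 4.61-fold lower in replicate 2 (2.79-fold with the offset of 50). *SLC25A47*, known from liver, was above background on replicate 1 only (19.3 and 13.9), and *SLC25A45* and *SLC25A48* were not above background on either array. *SLC25A35* was detected at a low level, with 23.5 and 20.3.

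Next the replicates were compared over all detected carriers. Of the 30, 18 (60.0%) were lower in replicate 2 by any amount, beside 39.1% of 9393 named genes above background. The median log2 difference was -0.20 for the carriers and 0.21 for all genes, and the SD of the differences was 1.35 and 0.92. By 2-fold or more in either direction, 7 of the 30 differed (23.3%), beside a background of 24.5%. With the offset of 50 the carriers' share was still 23.3% but the background was 11.1%, so whether the carriers lay near the background depends on how low values are treated. By direction, 6 were lower (20.0%, background 10.9%, or 6.29% with the offset) and 1 was higher (3.33%, background 13.5%, or 4.84% with the offset). By 4-fold or more, 4 carriers were lower (13.3%, background 2.67%) and 0 were higher, where 1.09% of all genes were. With the offset of 50 only *SLC25A1* and *SLC25A29* remained past 4-fold (6.67%, background 0.83%). No test was made of these shares, and with 1 array per replicate no single difference has a replicate check.

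**Figure D2:**
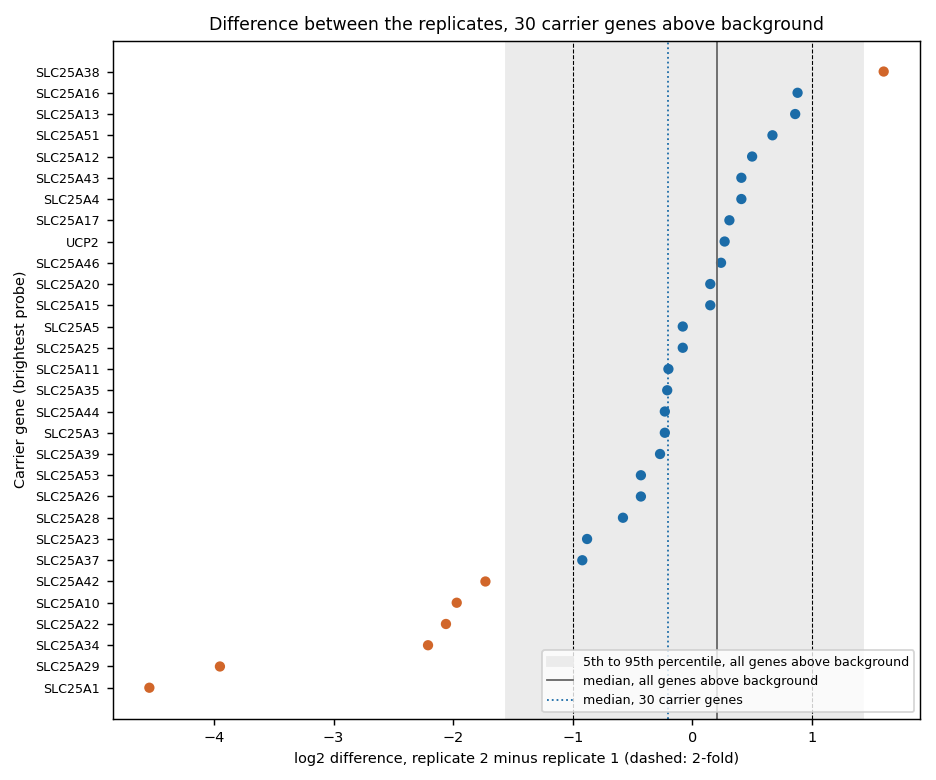
Log2 difference (replicate 2 minus replicate 1) of the brightest probe of the 30 carrier genes above background, sorted, with the median and the 5th to 95th percentile of all genes above background. The differences of 6 carriers lie below -1.56, the 5th percentile of all genes, with a gap between *SLC25A42* at -1.73 and *SLC25A37* at -0.92, and *SLC25A38* alone lies above 1.43, the 95th percentile.

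The 6 carriers that were lower by 2-fold or more were *SLC25A1*, *SLC25A29*, *SLC25A34*, *SLC25A22*, *SLC25A10* and *SLC25A42*, with log2 differences of -4.54, -3.95, -2.21, -2.06, -1.97 and -1.73. They come from 5 of the groups above, 1 of which (that of *SLC25A34*) holds carriers without a settled substrate. Only the citrate and dicarboxylate class held 2 of them. On replicate 1 their brightest probes had between 226 and 788, well over the floor. On replicate 2 the same probes had between 17.1 and 159. No detected carrier lay between log2 differences of -0.92 and -1.73. With the offset of 50 the same 6 still ranked lowest, but the gap narrowed, with *SLC25A42* at -1.24 and *SLC25A23* next at -0.75. Of the other detected carriers 23 were within 2-fold at the brightest probe, *SLC25A38* being the exception. The second probe of *SLC25A53*, close to its brightest in mean intensity (48.3 and 51.0), was 2.01-fold higher in replicate 2.

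Several carriers have more than 1 probe, which shows how far a value depends on the probe. Of 12 detected carriers with 2 or more probes, 9 had a further probe that was not above background on both arrays, beside 67.8% of 3780 detected genes with several probes. Of the 5 carriers with 2 or more probes above background, the probes of *SLC25A29* and *SLC25A53* lay more than 2-fold apart in their differences, by 1.91 and 1.43 on the log2 scale. Over all genes 31.5% did so. *SLC25A3*, *SLC25A4* and *SLC25A26* kept within it, at 0.51, 0.80 and 0.20. Of the 6 carriers lower in replicate 2, only *SLC25A29* had a second probe above background, which was also lower, and the second probe of *SLC25A42* was above background on replicate 1 only (21.2 and 2.49). The other four rest on 1 probe each.

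**Figure D3:**
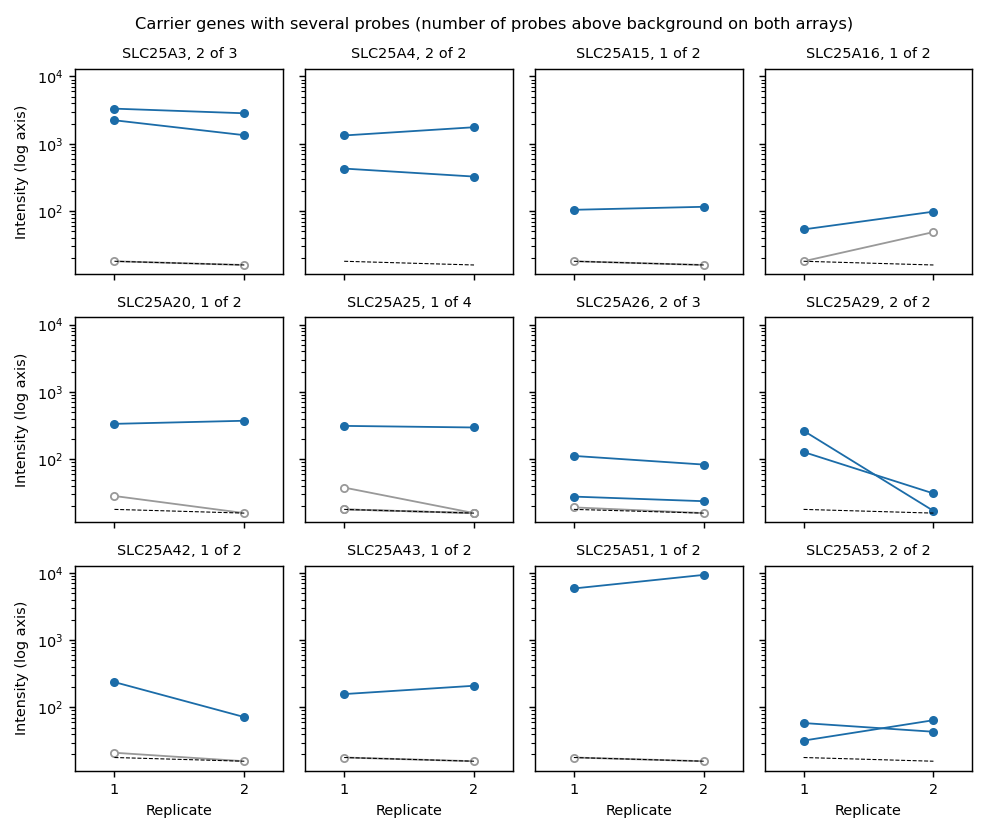
Intensity (log axis) of every probe of the 12 detected carrier genes with several probes, on replicates 1 and 2, with the background floor as a dashed line. Blue filled probes were above background on both arrays, grey open probes were not, and values under the floor are drawn on it. *SLC25A51* has 1 probe between 5837 and 9289 and 1 on the floor, both probes of *SLC25A29* slope down, and those of *SLC25A4* and *SLC25A53* slope opposite ways.

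The promoters of the carriers were then read, since base composition and promoter elements are features that neither the choice of members nor the arrays used. RefSeq promoter windows (GRCh38.p14) were used for 40 of the 48 carriers, and the 250 bases before the first listed start of each gene were searched on both strands for 6 motifs. These were the GC box GGGCGG, bound by SP1-type factors, the CCAAT box CCAAT, bound by NF-Y, the ETS core CCGGAA, the E-box CACGTG, the TATA box TATAAA, and GCATGCG, the centre of the site of NRF1, a regulator of many mitochondrial genes. Overlapping matches of a motif were each counted, and a match is a description of letters only. The windows below belong to *SLC25A1* and *SLC25A29*, the carriers with the widest differences, to *SLC25A42* with its run of CCAAT boxes, to *SLC25A38* as the higher carrier, and to the bright and stable *SLC25A5*. They are written on the strand of the gene, with motif matches in capitals.
SLC25A1 (chr22:19178737-19178986, minus strand): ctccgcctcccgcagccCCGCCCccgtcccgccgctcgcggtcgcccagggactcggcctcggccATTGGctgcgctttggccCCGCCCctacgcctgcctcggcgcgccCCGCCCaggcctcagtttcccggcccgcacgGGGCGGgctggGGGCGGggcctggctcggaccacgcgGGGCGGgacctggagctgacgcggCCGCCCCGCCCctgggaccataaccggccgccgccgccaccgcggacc
SLC25A29 (chr14:100306445-100306694, minus strand): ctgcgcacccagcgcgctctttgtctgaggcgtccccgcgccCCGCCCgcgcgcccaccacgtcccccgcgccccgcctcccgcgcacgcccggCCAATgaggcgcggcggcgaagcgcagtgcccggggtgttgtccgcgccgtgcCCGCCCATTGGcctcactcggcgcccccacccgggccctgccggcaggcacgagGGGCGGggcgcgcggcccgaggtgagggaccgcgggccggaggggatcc
SLC25A42 (chr19:19063744-19063993, plus strand): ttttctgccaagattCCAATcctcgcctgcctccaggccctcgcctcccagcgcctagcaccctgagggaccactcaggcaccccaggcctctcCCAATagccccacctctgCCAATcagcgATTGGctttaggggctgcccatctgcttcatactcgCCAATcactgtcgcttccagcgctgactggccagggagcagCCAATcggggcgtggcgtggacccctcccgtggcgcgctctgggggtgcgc
SLC25A38 (chr3:39383120-39383369, plus strand): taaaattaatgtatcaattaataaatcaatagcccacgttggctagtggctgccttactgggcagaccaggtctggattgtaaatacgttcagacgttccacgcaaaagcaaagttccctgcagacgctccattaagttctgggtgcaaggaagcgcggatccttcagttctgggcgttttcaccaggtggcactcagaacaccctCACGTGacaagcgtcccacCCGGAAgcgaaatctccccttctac
SLC25A5 (chrX:119468194-119468443, plus strand): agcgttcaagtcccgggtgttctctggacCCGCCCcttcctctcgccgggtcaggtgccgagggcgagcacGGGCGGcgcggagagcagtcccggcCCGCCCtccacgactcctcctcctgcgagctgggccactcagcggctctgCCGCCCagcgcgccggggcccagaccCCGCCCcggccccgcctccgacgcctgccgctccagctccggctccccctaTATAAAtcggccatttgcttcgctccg

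In these windows *SLC25A1* held 8 GC boxes and 1 CCAAT box, and *SLC25A29* 3 GC boxes and 2 CCAAT boxes. *SLC25A42* held 6 CCAAT boxes and no other match. *SLC25A38* held 1 E-box and 1 ETS core, and *SLC25A5* 5 GC boxes and a TATA box whose first letter lies at position -27, counted back from the start at -1. The window of *SLC25A1* thus had the most GC boxes of the 40, and that of *SLC25A42* the most CCAAT boxes.

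Over the 40 windows, the GC box was found in 26 (65.0%), the CCAAT box in 18 (45.0%), the ETS core in 12 (30.0%), the E-box in 7 (17.5%) and the TATA box in 3 (7.5%). Among 27304 promoter windows of the same length, 1 per gene, these shares were 42.3%, 33.0%, 14.8%, 6.5% and 11.1%. Detected genes were then compared with detected genes. For the 26 detected carriers with a window the shares were 73.1%, 53.8%, 30.8%, 15.4% and 7.7%, and for all 7693 such genes above background they were 67.4%, 35.7%, 25.6%, 9.4% and 5.4%. The NRF1 letters were in 1 of 40 carrier windows (2.5%), that of *SLC25A24*, in 3.6% of the 27304 windows and in 6.1% of those of detected genes. It was in 0 of the 26 windows of detected carriers. No test was made of these shares.

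Of the 6 lower carriers 5 had a window in this set, with a median G and C content of 78.0% (range 65.2% to 81.6%), beside 66.0% (37.6% to 79.6%) for the other 21 detected carriers with a window. Of these 5, *SLC25A1*, *SLC25A29* and *SLC25A22* had 81.6%, 81.2% and 78.0%, and *SLC25A34* and *SLC25A42* had 68.4% and 65.2%. *SLC25A38*, the higher carrier, had 49.6%. The groups overlapped, since *SLC25A15* with 79.6% and *SLC25A12* with 77.2% were not lower in replicate 2. Over all genes above background the same contrast was small. The median was 67.2% for the 816 genes that were 2-fold or more lower and 64.8% for the 5842 within 2-fold. For the 1035 genes that were 2-fold or more higher it was 64.0%, so the low value of *SLC25A38* had no counterpart there. Genes of 1 array are not independent replicates, and the part of base composition in the differences was not tested.

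**Figure D4:**
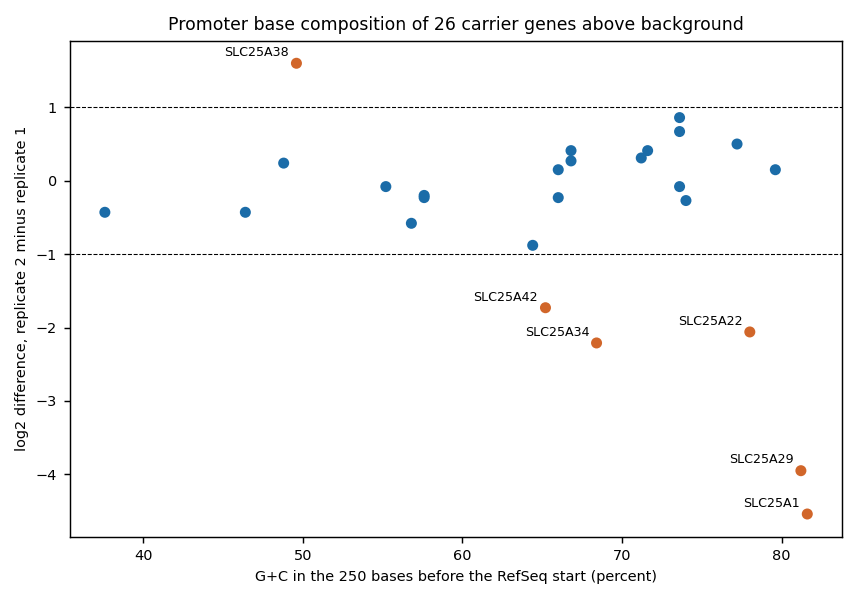
G and C content of the 250 bases before the RefSeq start (percent) against the log2 difference between the replicates for the 26 detected carriers with a promoter window. The named points differ by 2-fold or more. *SLC25A1*, *SLC25A29* and *SLC25A22* lie at 78.0% or more and *SLC25A34* and *SLC25A42* at 68.4% and 65.2%, but *SLC25A15* at 79.6% lies near 0.

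Last, the carriers were set beside a list of 42 enzymes and channels that work with them, of which 38 were measured. Detection was high in that list, with 35 of 38 above background on both arrays (92.1%, beside 46.9% of all named genes and 50.9% of protein-coding ones), and its median log2 difference was 0.21, the same as for all genes. By 2-fold or more, 5 were lower in replicate 2 (14.3%, background 10.9%) and 3 were higher (8.57%, background 13.5%). Over all detected partners 11 were lower in replicate 2 by any amount, among them *IDH2* (log2 difference -1.18) and *MDH2* (-0.54), and 24 were higher. *ACLY* and *CS*, which handle citrate, did not share the low value of *SLC25A1* on replicate 2. *ACLY*, which splits exported citrate in the cytosol, had 1745 and 2452, and *CS*, the synthase that makes citrate in the matrix, had 1523 and 2651. Both were higher in replicate 2, by 0.49 and 0.80 on the log2 scale, where the log2 difference of *SLC25A1* was -4.54.

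Citrate and pyruvate cycling enzymes were detected in 8 of 8 cases, with *OGDH* (176 and 45.5, at 1 of 3 probes) and *IDH2* (767 and 339) lower by 2-fold or more. The group of malate-aspartate shuttle enzymes, 5 of 5 detected, stayed within 2-fold, as the shuttle carriers did. Most detected genes did so too, since 24.5% of all genes above background differed by 2-fold or more. The group holds *GOT1*, *GOT2*, *MDH1* and *MDH2*, and counts *GLUD1* (1653 and 963) with them, which is not itself a shuttle enzyme. Within it *GOT1* and *MDH1* were higher in replicate 2, and *GOT2*, *MDH2* and *GLUD1* were lower. Of the carnitine shuttle enzymes, 4 of 4 were detected. *CPT1B*, the muscle form of the enzyme that makes acylcarnitines for *SLC25A20*, had 117 and 297 and was 2.53-fold higher. *CPT1A*, the widely expressed form of that enzyme, had 34.2 and 38.9 at 1 of 3 probes.

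Among 16 measured mitochondrial transport proteins without a member symbol, *MTCH1* and *MTCH2* included, 14 were detected. The pyruvate carrier subunits *MPC1* and *MPC2*, through which pyruvate enters the matrix, had 583 and 824 and 447 and 683. *VDAC1*, a pore of the outer membrane, had 1128 and 1142, and *VDAC3* had 2209 and 2737, while the probe of *VDAC2* was under the floor. *SFXN1*, *SFXN4* and *TSPO* were lower in replicate 2 by 2-fold or more (log2 differences of -1.82, -1.32 and -1.66) and *ABCB10* was higher by 1.46. For *TSPO* this was 1 of 2 probes. Wide differences in both directions were therefore also seen outside the SLC25 family. *ABCB10*, which supports haem synthesis, and *FECH*, the enzyme of its last step, were higher in replicate 2 as *SLC25A38* was. The values of *FECH* were 36.1 and 78.5 at 1 of 2 probes, but *ALAS1*, the enzyme of the first step, had 50.6 and 55.3.

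**Figure D5:**
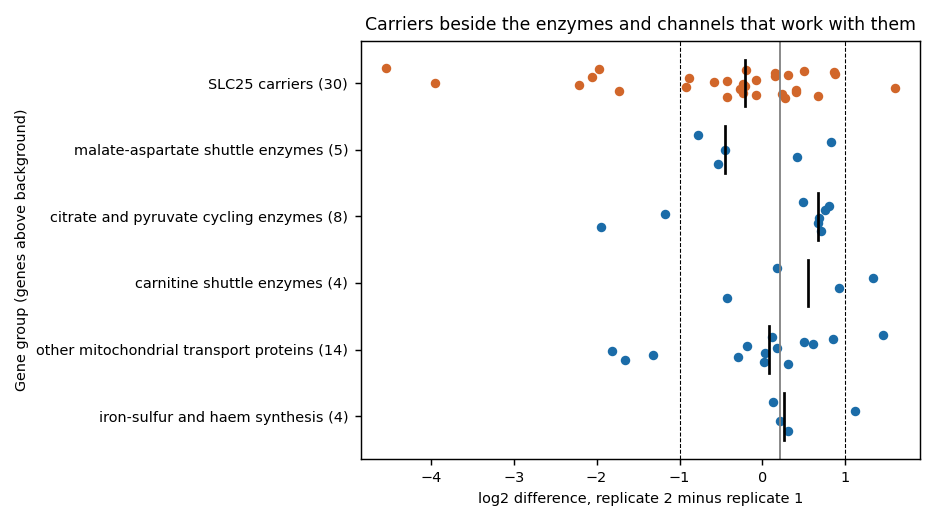
Log2 difference between the replicates for 30 carriers and for the detected partner genes in 5 groups, 1 point per gene, with the median of each group as a short black line, the median of all genes as a grey line and 2-fold as dashed lines. Points are spread vertically for legibility only. The 4 lowest points belong to the carriers. Each of the other groups except the malate-aspartate shuttle enzymes, with which *GLUD1* is counted, holds a point beyond 2-fold.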

How the data were processed

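Illumina bead arrays of 2 samples in 1 group were read from the deposited series table. Its values are intensities on a linear scale, deposited by the authors after processing that names GenomeStudio, per the submitters' processing notes (version and settings not given in the sources used here). The design text says that the arrays were normalized together with published arrays. Values reach -22.6, as background subtraction leaves, and the sorted values of the arrays differ by at most 0.155, as quantile normalization leaves, which hides any shift common to all genes.

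Probes were named from the platform annotation: 30113 had 1 gene, 8 several and 17202 none. Symbols of 30074 were updated through a RefSeq gene table. Values under the floor were raised to it before the log2 step. Folds are given where both arrays were above the floor, and otherwise as a bound against it. Every carrier gene may be named, and beside them the genes of the partner and marker lists. Members and lists were chosen with earlier results of these data known. With 1 array per replicate no test was possible, and the number of arrays limits the precision. The gene-level step was tested on simulated data with large changes in bright genes of a single probe, which does not cover low values or several probes. Python 3.11.15, pandas 2.3.3 and numpy 2.4.6 were used. One promoter window is not reported here.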

Additional observations from a re-analysis of the deposited data

How the results depend on the processing

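The number of detected carriers, 30 of 48, was 32 with the floor at the 90th percentile of olfactory receptor probes, 29 at the 99th, 31 with a floor from keratin-associated protein and taste receptor probes and 29 with a gene called at its median probe. It ranged from 32 to 34 with 1 array alone, and was 30 with updated symbols or, as an alternative added after seeing the data, with the pseudogenes and the antisense RNA included. The counts of 7 carriers past 2-fold, 6 lower and 1 higher, were the same under median centring, an offset of 50, the median probe and the 99th percentile floor, and the median difference lay between -0.26 and -0.11. With the offset of 50 the background of genes past 2-fold was 11.1%, split into 591 lower and 455 higher, in place of 24.5%, 1026 and 1272, so the share of carriers no longer lay near it. With that offset 2 carriers were lower by 4-fold or more, in place of 4, and 5 were so after median centring (both counts added after seeing the data). Quantile normalization could change almost nothing, since the sorted values of the arrays differ by at most 0.155, and is no check of these counts. Median centring moved the differences little, *SLC25A1* from -4.54 to -4.59, and is a weak check. The median probe of a difference was taken over probes above background. Of the carriers past 2-fold only *SLC25A29* has more than 1 such probe, so the median probe is no check of the others. By the median probe, *SLC25A53* turned from -0.43 to 0.29, *SLC25A4* moved to 0.01 and *SLC25A3* from -0.23 to -0.48, all within 2-fold. No paired analysis was possible because there is 1 group. With 2 arrays, none of the differences has a replicate check, and probes near the floor give compressed folds.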

Other observations

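Some enzymes of the shuttles exist as a cytosolic and a mitochondrial form encoded by different genes, and these pairs were noticed after the values were seen. The cytosolic forms were higher in replicate 2, *GOT1* by 0.83, *MDH1* by 0.42 and *IDH1* by 0.76 on the log2 scale. The mitochondrial forms were lower, *GOT2* at -0.45, *MDH2* at -0.54 and *IDH2* at -1.18. The malic enzymes did not follow this split, since cytosolic *ME1* and mitochondrial *ME2* were higher by 0.68 and 0.67. Only *IDH2* passed 2-fold.

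The antisense RNA *SLC25A21-AS1* had 14.5 and 18.1 at the brighter of its 2 probes, over the floor on replicate 2 only, where *SLC25A21* itself was under the floor on both arrays.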
